A study of Mus musculus with 54 samples.

Results

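The genes described here are 35 mouse genes for cytokines, chemokines, colony-stimulating factors and endothelial adhesion molecules, with the prostaglandin synthase Ptgs2, of 53379 gene identifiers counted. They were taken as a fixed list of symbols, and each symbol matched 1 Ensembl gene. By role they comprise 11 cytokines and cytokine antagonists (Il6, Il1a, Il1b, Tnf, Lif, Osm, Il10, Il15, Il18, Il33 and Il1rn), 16 chemokines, 3 colony-stimulating factors (Csf1, Csf2 and Csf3), 4 adhesion molecules (Icam1, Vcam1, Sele and Selp) and 1 enzyme. They were measured by bulk RNA sequencing of ribosome-depleted total RNA, 5 h after 1 Gy of radiation or sham treatment, in 18 libraries, with 3 in each of 6 groups. The groups were SmoA1 tumours after 1 Gy and after sham treatment, cerebellum of normal C57BL/6 (BL6) mice after 1 Gy and after sham treatment, and Ptc het tumours after 1 Gy and after sham treatment. SmoA1 mice carry a transgene for a constitutively active Smoothened, and the labels give their strain as SmoA1 homo. Ptc het mice lack 1 working copy of the hedgehog receptor gene Ptch1, and the labels give C57BL/6 as their strain. Both models form cerebellar tumours that resemble hedgehog-driven medulloblastoma. The labels do not name the promoter of the transgene, the ages of the mice, or whether each library is 1 animal. The p-values therefore speak only of the spread among these libraries.

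Cytokines such as interleukin 6 and tumour necrosis factor are released by microglia, macrophages, glia and endothelium, and act on receptors of neighbouring cells, where they switch on the transcription factors NF-kB and STAT3. Chemokines draw leukocytes along a gradient, and CXC chemokines with an ELR motif mainly attract neutrophils while many CC chemokines attract monocytes. Before a leukocyte can leave a vessel it is slowed by endothelial selectins and arrested by Icam1 and Vcam1, which bind leukocyte integrins.

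The SmoA1 and BL6 libraries were shallow. They held between 540652 and 842997 counts in genes, against 34124031 to 51330146 in the Ptc libraries, so a member with few counts there has a wide counting error. The median member count per library was 24 in SmoA1 tumours after 1 Gy and 12 after sham, 8 in BL6 cerebellum after 1 Gy and 5 after sham, and 165 in Ptc tumours after 1 Gy and 24 after sham. In BL6 cerebellum 19 of 35 members stayed under 10 counts in every library after 1 Gy, and 21 of 35 after sham. In the SmoA1 and BL6 libraries most uniquely mapped reads lay outside exons. Of their strand-specific counts, 99.1% or more of those of plus-strand genes and under 1% of those of minus-strand genes stood in the first strand column, so the reads lay on 1 strand of the genome whatever the gene's orientation. In the Ptc libraries 94.4% to 95% of counts lay in the second strand column for genes of both orientations. The Ptc libraries are thus of another type, and their levels are not compared with the others. Each SmoA1 or BL6 library is the sum of 4 files that the labels call biological replicates of 1 numbered sample. These 4 files differed by less than sampling noise and were counted as 1 sample, so n = 3 is the number of numbered samples. Levels are in CPM, the count scaled by TMM to a common library size, taken over the 12 SmoA1 and BL6 libraries together, or over the 6 Ptc libraries together. Library values are given in the order of the sample numbers, which are 1, 2 and 3 in every group except SmoA1 sham (1, 2 and 4) and BL6 1 Gy (2, 3 and 4).

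The promoters of several members are shown here, chosen for the motifs they carry. RefSeq sequences on GRCm38.p6 were given for 24 of the 35 members, in 27 promoters. The 250 bases before each start were searched on both strands for the kappaB consensus bound by NF-kB, for the AP-1 motif TGANTCA, for the p53 half-site and for TATAAA. No 2 different motifs overlapped in these promoters. Matches to the kappaB consensus lay in 7 of the 24 members (Ccl9, Csf1, Cxcl1, Cxcl10, Cxcl2, Il6 and Lif) and in 8.23% of 27025 genes in the table. AP-1 motifs lay in 8 of 24 members and 7.82% of genes, p53 half-sites in 4 of 24 members and 8.2% of genes, and TATAAA in 10 of 24 members and 14.3% of genes. In the 150 bases before the start, read 5′ to 3′ on the gene's strand, capitals mark kappaB matches in Il6, Cxcl1 and Cxcl2, a kappaB match followed by an AP-1 motif in Cxcl10, and AP-1 motifs in Sele, Selp and Il1rn.
Il6 (chr5:30012964-30013113, plus strand): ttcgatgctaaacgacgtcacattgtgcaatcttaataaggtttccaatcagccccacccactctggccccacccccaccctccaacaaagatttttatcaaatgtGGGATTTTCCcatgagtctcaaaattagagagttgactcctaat
Cxcl1 (chr5:90891095-90891244, plus strand): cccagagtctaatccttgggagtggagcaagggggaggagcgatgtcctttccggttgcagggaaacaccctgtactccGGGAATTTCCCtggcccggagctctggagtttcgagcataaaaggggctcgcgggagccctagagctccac
Cxcl2 (chr5:90903749-90903898, plus strand): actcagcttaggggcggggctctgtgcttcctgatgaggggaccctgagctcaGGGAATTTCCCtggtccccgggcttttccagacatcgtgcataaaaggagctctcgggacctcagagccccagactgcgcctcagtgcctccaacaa
Cxcl10 (chr5:92348890-92349039, minus strand): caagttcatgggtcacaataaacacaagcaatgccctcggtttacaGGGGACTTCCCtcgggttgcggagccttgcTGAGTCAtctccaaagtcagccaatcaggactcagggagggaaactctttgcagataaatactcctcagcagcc
Sele (chr1:164048084-164048233, plus strand): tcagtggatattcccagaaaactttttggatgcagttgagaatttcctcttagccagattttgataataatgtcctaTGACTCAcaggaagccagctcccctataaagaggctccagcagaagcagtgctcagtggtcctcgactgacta
Selp (chr1:164115114-164115263, plus strand): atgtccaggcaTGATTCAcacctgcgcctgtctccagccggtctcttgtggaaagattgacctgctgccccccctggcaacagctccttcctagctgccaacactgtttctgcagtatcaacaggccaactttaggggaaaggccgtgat
Il1rn (chr2:24336710-24336859, plus strand, first of 3 listed starts): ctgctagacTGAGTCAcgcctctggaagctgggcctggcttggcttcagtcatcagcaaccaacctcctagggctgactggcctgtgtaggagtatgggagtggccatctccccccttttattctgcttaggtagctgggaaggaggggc
The neighbouring chemokine genes Cxcl1 and Cxcl2 carry the same capital run. The other listed starts of Il1rn had neither a kappaB nor an AP-1 match. Nor did Il33, called below in SmoA1, or Il1b and Icam1, called below in Ptc by DESeq2, and their promoters are not shown. Capitals mark only the kappaB and AP-1 matches, and no match means only that these letters are not in the window. A match describes sequence only, and occupancy was not measured.

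In SmoA1 tumours 3 of the 4 adhesion genes (Selp, Sele and Vcam1), the interleukin 1 antagonist Il1rn, the alarmin Il33 and the granulocyte factor Csf3 rose after 1 Gy, the last with a call that did not outlast the loss of any 1 library. Of the 35 members, 28 passed the low-count filter and 6 were called higher (Il1rn, Selp, Vcam1, Sele, Il33 and Csf3) and 0 lower. A call is an adjusted p under 0.05 in the edgeR quasi-likelihood test over all 16690 genes tested, of which 1.98% were called higher and 0.192% lower. With no filter, all 35 members had a positive fitted change, with a median log2 fold change of 0.79, beside 51.1% positive and a median of 0.01 over 37526 genes with a count. Every 1 Gy library lay above every sham library in 16 of the 28 tested members, beside 9.85% of all genes tested. Some tested members passed the filter through their counts in the 1 Gy libraries, the group where they are high. Among them were Sele, at 4, 13 and 4 counts after sham, Selp, at 8, 13 and 9, and Csf3, at 3, 6 and 7. The counts of members called and of members without overlap carry this limit. More cells of a type and more RNA per cell cannot be told apart in bulk tissue.

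Selp encodes P-selectin, which endothelium and platelets display to tether leukocytes (ENSMUSG00000026580, chromosome 1, 164115264 to 164150026 on GRCm38). It stood at 47.7, 48 and 39.7 CPM in the SmoA1 1 Gy libraries, against 11.9, 16.5 and 12.1 CPM in the sham libraries. The groups were far apart, and the log2 fold change was 1.72 ± 0.29 (SE, edgeR adjusted p = 0.00347). Exons of unnamed antisense genes overlap Selp over 624 bases. The unstranded counts used here fell short of those in the first strand column, so the CPM of Selp is an undercount. They were 32, 38 and 27 against 37, 48 and 31 after 1 Gy, and 8, 13 and 9 against 16, 21 and 14 after sham. The shortfall was relatively larger after sham, so the fold change from unstranded counts is raised as well. Across 14 alternative fits, the strand column among them, the log2 fold change ran from 1.21 to 1.90 and the call held. Antisense exons also overlap Icam1 over 511 bases. Its unstranded counts were 50, 43 and 47 against 55, 54 and 52 after 1 Gy, and 20, 38 and 9 against 29, 43 and 15 after sham.

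Sele encodes E-selectin, made by activated endothelium, and lies just upstream of Selp (164048234 to 164057677). The SmoA1 1 Gy libraries held 35.7, 42.9 and 36.7 CPM, against 5.93, 16.5 and 5.37 CPM in the sham libraries. Sham library 2 was the highest sham library and still below every 1 Gy library (log2 fold change 2.00 ± 0.38, edgeR adjusted p = 0.0065). Without 1 Gy library 2 the call was lost, with an edgeR adjusted p of 0.0786.

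Vcam1, the endothelial ligand of the integrin VLA4, had 129.6, 129 and 123 CPM after 1 Gy, against 69.7, 75 and 76.5 CPM after sham. The 3 libraries of each group lay close together, far from those of the other group, and Vcam1 rose 1.72-fold (edgeR adjusted p = 0.00548). Icam1, the ligand of the leukocyte integrin LFA1, had 74.5, 54.3 and 69 CPM after 1 Gy, against 29.7, 48.3 and 12.1 CPM after sham. All 1 Gy libraries exceeded all sham libraries, but sham library 4 was far below sham library 2, and the fitted difference of 2.15-fold did not pass (edgeR adjusted p = 0.0581).

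Il1rn encodes the interleukin 1 receptor antagonist, which blocks signalling by Il1a and Il1b. The SmoA1 1 Gy libraries held 61.1, 65.7 and 57.3 CPM and the sham libraries 22.2, 22.9 and 28.2 CPM (log2 fold change 1.32 ± 0.23, edgeR adjusted p = 0.00347). Il33, an alarmin held in the nucleus of glia and endothelium and released on damage, had 74.5, 50.5 and 77.8 CPM after 1 Gy and 32.6, 36.9 and 26.9 CPM after sham. Neither gene's groups overlapped, and Il33 rose 2.07-fold (edgeR adjusted p = 0.0165). The Il33 call was lost without 1 Gy library 1 or 3 or without sham library 1 or 4, with edgeR adjusted p between 0.0564 and 0.105.

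The interleukin 1 agonists and Tnf were less uniform. Il1b, the secreted interleukin 1, had 31.3, 44.2 and 33.8 CPM after 1 Gy, against 17.8, 21.6 and 5.37 CPM after sham, without overlap (log2 fold change 1.28 ± 0.37, edgeR adjusted p = 0.0774). Il1a, which is also active while bound to the membrane, had 25.3, 32.8 and 29.4 CPM after 1 Gy and 16.3, 28 and 17.5 CPM after sham, with overlap (edgeR adjusted p = 0.536). Tnf, the cytokine that activates endothelium through NF-kB, had 11, 13 and 15 counts after 1 Gy and 11, 11 and 11 counts after sham, a log2 difference of 0.27 ± 0.37 (edgeR adjusted p = 0.823).

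Il6, the inducer of the acute phase response, had 24, 24 and 19 counts after 1 Gy, against 1, 15 and 2 counts after sham, or 35.7, 30.3 and 27.9 CPM after 1 Gy and 1.48, 19.1 and 2.69 CPM after sham. Sham library 2 was again the high one, the groups did not overlap, and the log2 difference of 1.93 ± 0.51 lay just outside the threshold (edgeR adjusted p = 0.0541). Lif and Osm signal through the same gp130 receptor chain as Il6. Lif had 34.3, 59.4 and 49.9 CPM after 1 Gy, against 26.7, 39.4 and 14.8 CPM after sham. Osm had 22.3, 26.5 and 35.3 CPM after 1 Gy, against 13.3, 26.7 and 6.71 CPM after sham. In both the highest sham library reached into the range of the 1 Gy group (edgeR adjusted p = 0.199 for Lif and 0.369 for Osm).

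Il10, the anti-inflammatory cytokine, had too few counts in sham to enter the test. It had 13, 22 and 9 counts after 1 Gy, against 0, 1 and 0 counts after sham. The ratio of 44 to 1 counts, scaled to depth, was 45.3, with an exact 95% interval of 7.71 to 1828 that covers counting error only. DESeq2, which sets its own filter, called Il10 higher (adjusted p = 0.00977), and so did edgeR with no filter (adjusted p = 1.21e-06). Il15, which sustains natural killer cells, averaged 25.3 ± 2.8 CPM after 1 Gy and 15.6 ± 5.24 CPM after sham, without overlap (SD, n = 3 each, edgeR adjusted p = 0.414). Il18, matured by the inflammasome, averaged 23.3 ± 7.68 CPM after 1 Gy and 23 ± 3.28 CPM after sham (SD, n = 3 each, edgeR adjusted p = 0.986).

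Csf3 encodes granulocyte colony-stimulating factor, the main driver of neutrophil production. It had 16, 14 and 23 counts after 1 Gy, against 3, 6 and 7 counts after sham. In CPM these were 23.8, 17.7 and 33.8 after 1 Gy and 4.45, 7.63 and 9.4 after sham, well separated. The change of 1.75 ± 0.44 on the log2 scale was called (edgeR adjusted p = 0.0387) but lost on leaving out any single library, with edgeR adjusted p between 0.0572 and 0.172. DESeq2 gave it an adjusted p of 0.127. Csf1, the growth factor of microglia and macrophages, had 93.8, 94.7 and 66.1 CPM after 1 Gy and 51.9, 66.1 and 52.4 CPM after sham, with a slight overlap (edgeR adjusted p = 0.144). Csf2 had 3 counts in 1 Gy library 1 and none in the other SmoA1 libraries.

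No chemokine passed in SmoA1 tumours, although each of the 16 had a higher mean after 1 Gy. Among the neutrophil attractants, Cxcl2 had 25.3, 30.3 and 26.4 CPM after 1 Gy, against 7.41, 11.4 and 14.8 CPM after sham. Cxcl1 had 41.7, 27.8 and 27.9 CPM after 1 Gy, against 13.3, 24.2 and 20.1 CPM after sham. Neither overlapped, at edgeR adjusted p of 0.0815 for Cxcl2 and 0.302 for Cxcl1. The related Cxcl5 was 24.4 ± 9.72 CPM after 1 Gy and 22.2 ± 3.32 CPM after sham (SD, n = 3 each). Ccl2, the principal monocyte attractant, had 31.3, 24 and 27.9 CPM after 1 Gy against 16.3, 14 and 13.4 CPM after sham, without overlap (log2 fold change 0.91 ± 0.33, edgeR adjusted p = 0.193).

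Ccl6 and Ccl9, a neighbouring pair of CC chemokines of mouse macrophages, also separated. Ccl6 averaged 32.5 ± 5.19 CPM after 1 Gy and 16.8 ± 2.96 CPM after sham, and Ccl9 36.9 ± 9.19 CPM after 1 Gy and 19.4 ± 1.42 CPM after sham (SD, n = 3 each). Neither passed (edgeR adjusted p = 0.148 for Ccl6 and 0.141 for Ccl9). The T cell attractants Cxcl9 and Cxcl10, known as interferon targets, overlapped between the groups. Cxcl9 had 35.7, 37.9 and 41.1 CPM after 1 Gy and 38.6, 12.7 and 21.5 CPM after sham. Cxcl10 had 35.7, 44.2 and 36.7 CPM after 1 Gy and 17.8, 38.2 and 24.2 CPM after sham. A single sham library of each, library 1 for Cxcl9 and library 2 for Cxcl10, lay among the 1 Gy values. Cx3cl1, the neuronal ligand of microglial Cx3cr1, had 46.2, 74.5 and 35.3 CPM after 1 Gy and 40.04, 22.9 and 29.5 CPM after sham (edgeR adjusted p = 0.197). Cxcl12 and Cxcl16 were nearly level, with log2 differences of 0.04 ± 0.19 and 0.04 ± 0.25. Ccl3, Ccl4, Ccl5, Ccl7 and Ccl12 stayed at 16 counts or fewer in every SmoA1 library and were not tested.

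Ptgs2, cyclooxygenase 2, makes the precursor of prostaglandins. It had 61.1, 54.3 and 39.7 CPM after 1 Gy and 40.04, 44.5 and 12.1 CPM after sham. Sham library 4 was low and sham libraries 1 and 2 lay in the range of the 1 Gy group (edgeR adjusted p = 0.337).

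**Figure D1:**
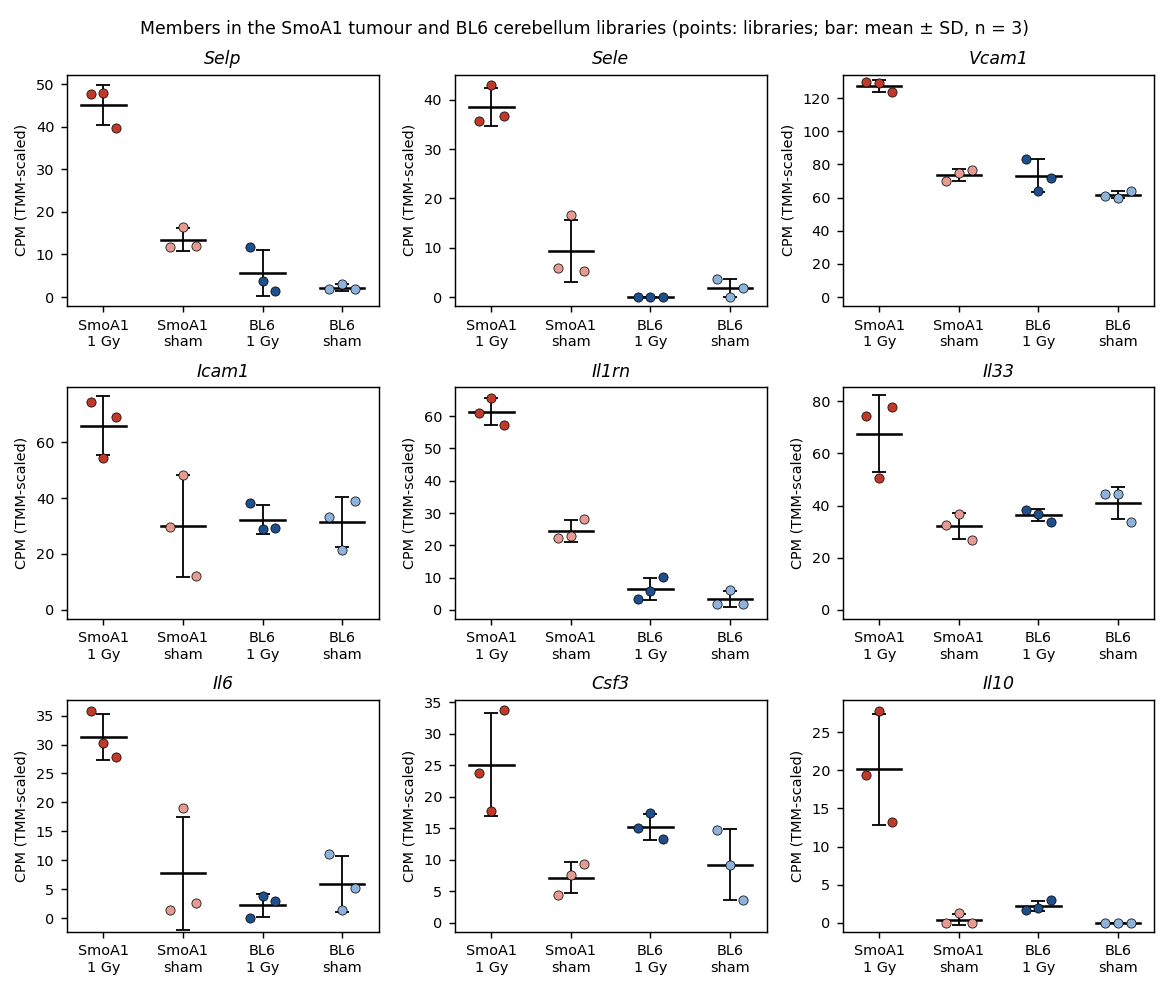
TMM-scaled CPM (linear axes) of 9 members in the 12 SmoA1 and BL6 libraries. Points are libraries and bars are the mean ± SD (n = 3). Each of the 9 is highest in the 3 SmoA1 1 Gy libraries, narrowly for Csf3, Icam1 and Il33, and Sele is at 0 in all 3 BL6 1 Gy libraries.

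Genes that act with the members were examined in SmoA1 tumours as well. Of 28 genes of NF-kB signalling, all tested, 5 were called higher and 0 lower. Tnip3, an inhibitor of NF-kB signalling, averaged 59.2 CPM after 1 Gy and 3.63 CPM after sham (edgeR adjusted p = 4.21e-05), and Birc3 and Tnfaip3 rose 1.93-fold and 1.88-fold. Of 34 cytokine and chemokine receptors 30 were tested and 4 called higher, with Il2rb at 40.5 CPM after 1 Gy and 10.1 CPM after sham, and Cxcr2, the receptor of Cxcl1 and Cxcl2, at 44.5 CPM after 1 Gy and 16.4 CPM after sham. Il18r1, which binds Il18, averaged 39.6 CPM after 1 Gy and 14.2 CPM after sham (edgeR adjusted p = 0.0259). Of 15 leukocyte partners of the adhesion genes 14 were tested and 2 called higher. Cd44, a receptor for hyaluronan and for selectins, averaged 106.7 CPM after 1 Gy and 58.1 CPM after sham (edgeR adjusted p = 0.0244). Of 10 other genes of prostaglandin and leukotriene synthesis 9 were tested and 0 were called. Over the list, the median log2 change was 0.38 for NF-kB signalling, 0.36 for receptors, 0.45 for adhesion partners and 0.08 for eicosanoid genes, beside -0.02 for all genes tested.

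Markers of the cells that could supply these transcripts were read beside them. The summed CPM of 18 microglia and macrophage markers was 657 to 700 in SmoA1 tumours after 1 Gy and 633 to 655 after sham, and 0 of 18 were called. For 12 endothelial markers it was 781 to 863 after 1 Gy and 705 to 746 after sham, and 0 of 12 were called. For 12 neutrophil markers, of which 4 were tested and 2 called higher (Mmp8 and Cxcr2), it was 223 to 265 after 1 Gy and 132 to 153 after sham. For 12 lymphocyte markers it was 134 to 195 after 1 Gy and 106 to 147 after sham, with 0 of 3 tested called by edgeR and 1 by DESeq2. For 9 fibroblast and meningeal markers it was 546 to 581 after 1 Gy and 489 to 572 after sham, with 1 of 9 called higher, the matrix gene Dcn (74.0 CPM after 1 Gy and 31.4 CPM after sham, edgeR adjusted p = 0.0177). For 7 erythrocyte markers it was 53.6 to 82.3 after 1 Gy and 29.5 to 49.6 after sham, with 1 of 2 tested called higher. Of the other lists, 1 of 10 granule neuron and 1 of 6 tested choroid and ependymal markers were called higher, and 0 of 9 pericyte, 0 of 9 astrocyte and 0 of 10 granule progenitor markers. Hba-a2, at 0 in all sham libraries, was the one marker of these lists at 0 throughout a SmoA1 group. The part of these lists in the members' changes was not tested.

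In BL6 cerebellum few members could be measured, and none was called after 1 Gy. Only 12 of 35 passed the filter (Cxcl12, Cxcl16, Cx3cl1, Ccl9, Lif, Csf1, Il15, Il18, Il33, Icam1, Vcam1 and Ptgs2). The edgeR test called 0 of them and DESeq2 called 0, and none had an unadjusted p under 0.05. Of all 15918 genes tested 0.0126% were called. With no filter, 24 of 34 members with a count had a positive fitted change, with a median log2 of 0.19, beside 48.2% of all genes and a median of -0.02.

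Vcam1 had 83.5, 63.9 and 72.1 CPM in BL6 after 1 Gy, against 61, 59.9 and 63.9 CPM after sham. It was the single tested member with every 1 Gy library above every sham library, as were 4.46% of all genes tested, but the lowest 1 Gy and the highest sham library were equal to 3 digits (log2 difference 0.26 ± 0.19, edgeR adjusted p = 0.998). Cxcl12, which holds progenitors and leukocytes in place through Cxcr4, had 85.1, 96.8 and 98.5 CPM after 1 Gy and 105, 109 and 99.4 CPM after sham. Its groups separated in the other direction, again narrowly (log2 difference -0.16 ± 0.16, edgeR adjusted p = 0.998). Csf1 had 55.1, 67.8 and 64.7 CPM after 1 Gy and 51.8, 49.1 and 60.3 CPM after sham, with overlap.

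Icam1 had 38.4, 29 and 29.4 CPM in BL6 after 1 Gy and 33.3, 21.5 and 39 CPM after sham. Ptgs2 had 43.4, 58.1 and 36.8 CPM after 1 Gy and 37, 53.8 and 55 CPM after sham. Both overlapped. The inflammatory cytokines stood at a few counts per library. Il6 had 0, 2 and 2 counts after 1 Gy and 6, 1 and 3 counts after sham, and Tnf had 3, 1 and 0 counts after 1 Gy and none after sham. Il1b had 9, 6 and 9 counts after 1 Gy and 10, 2 and 2 counts after sham. Ccl2 had 6, 4 and 11 counts after 1 Gy and 5, 7 and 2 counts after sham. For these genes no difference was detectable at this depth. The same held for Il10, with 1, 1 and 2 counts after 1 Gy and none after sham. Sele had 0, 0 and 0 counts after 1 Gy and 2, 0 and 1 after sham, and Csf2 had none in any BL6 library. Xist, the transcript of the inactive X chromosome, stood at 103.5, 165 and 85.3 CPM in the BL6 1 Gy libraries and 205, 247 and 229 CPM in the sham libraries, and its part in the BL6 values was not tested. Of the related receptors, adhesion partners, NF-kB signalling genes and eicosanoid genes, 24, 12, 26 and 9 were tested in BL6 and 0 were called.

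**Figure D2:**
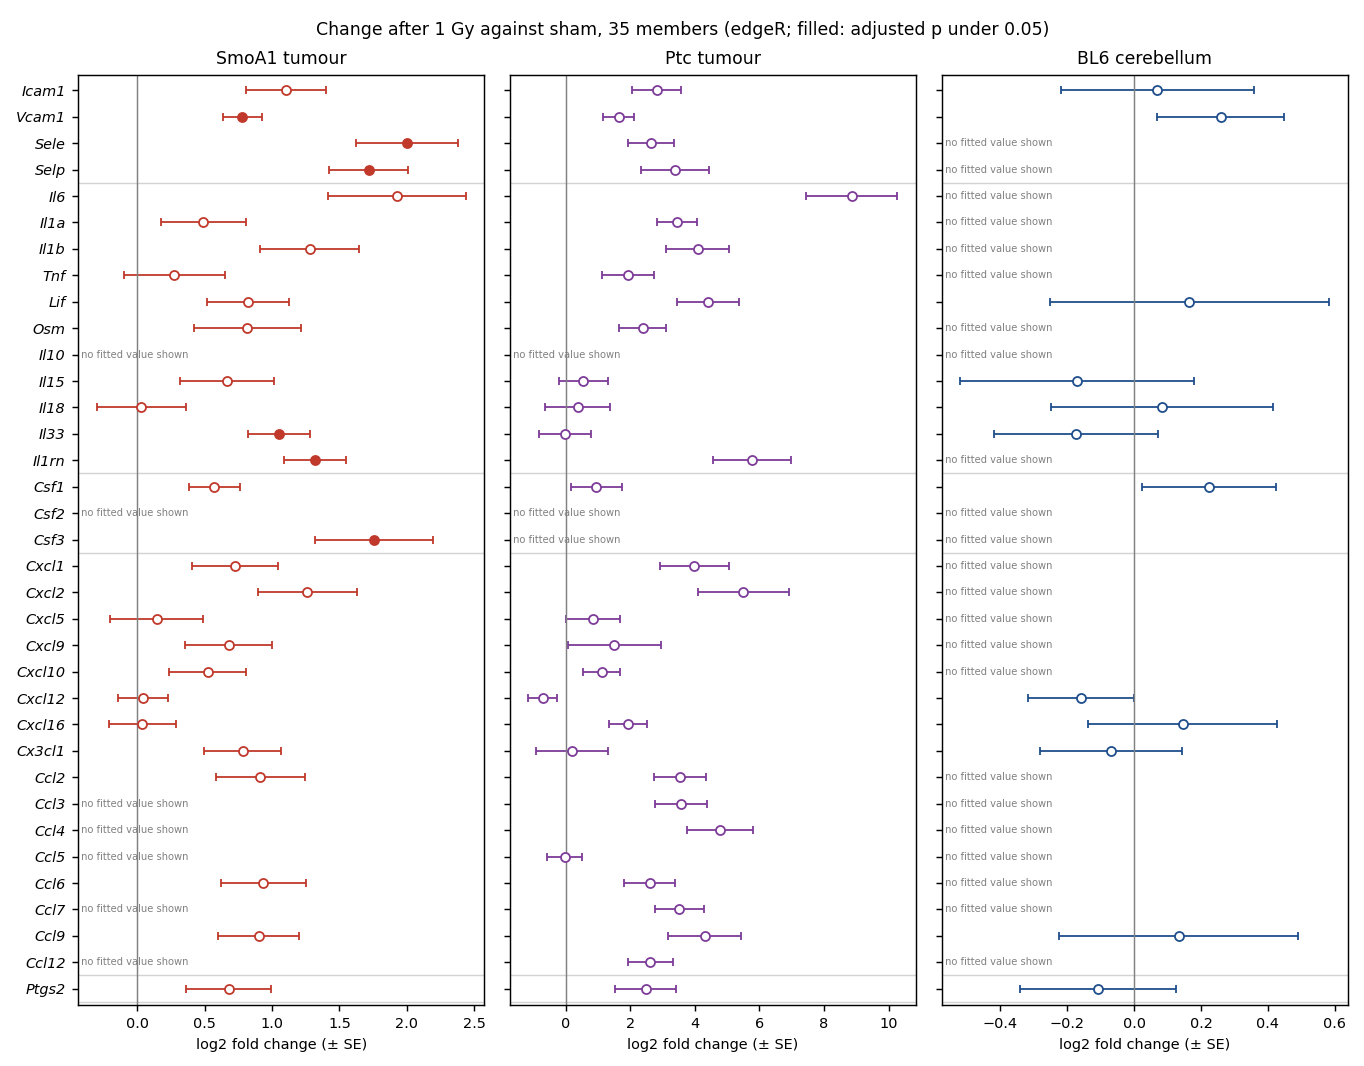
Log2 fold change after 1 Gy against sham (edgeR, ± SE) of the members in SmoA1 tumours, Ptc tumours and BL6 cerebellum, grouped by role, on separate linear axes. Filled points, which are 6 in SmoA1 and 0 in Ptc and BL6, have an adjusted p under 0.05, and members without a point did not pass the low-count filter.

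The difference between the SmoA1 and the BL6 response was tested directly. Of 28 members that passed, 0 were called by edgeR and 0 by DESeq2, while 6 had an unadjusted p under 0.05, and 1.06% of 18188 genes were called. Il33 came nearest, with a change that was 1.23 ± 0.33 higher on the log2 scale in SmoA1 than in BL6 (SE, edgeR adjusted p = 0.0666). Without SmoA1 1 Gy library 2, or without SmoA1 sham library 2, 1 member was called. Over all genes these fits called 80 and 195 higher and 6 and 12 lower. For Icam1 the difference was 1.04 ± 0.45 and for Vcam1 0.53 ± 0.23 (edgeR adjusted p = 0.352 for Icam1 and 0.365 for Vcam1). The changes of these genes in SmoA1 are therefore not shown to differ from those in BL6. Among related genes, 2 of 14 adhesion partners and 1 of 28 NF-kB signalling genes were called with a more positive change in SmoA1.

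Between the irradiated tissues the separation was wide, across adhesion genes, interleukin 1 and gp130 cytokines and several chemokines. Of 29 members tested, 17 were called higher in SmoA1 tumours than in BL6 cerebellum after 1 Gy and 0 lower, where 4.33% and 2.58% of 16990 genes were called. Of those called, Il6, Il1a, Il1b, Tnf, Osm, Il1rn, Cxcl1, Cxcl2, Cxcl9, Cxcl10, Ccl2, Sele and Selp did not pass the filter within BL6. They entered this test through their counts in SmoA1, the group where they are high. With no filter, 18 of 35 members were called, where 1460 of 36755 genes were called higher and 775 lower. In that fit 33 of 35 members had a positive fitted difference, beside 53.5% of all genes with a count.

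After 1 Gy, all 4 adhesion genes were called higher in SmoA1 than in BL6. Selp had 47.7, 48 and 39.7 CPM in SmoA1, against 11.7, 3.87 and 1.47 CPM in BL6, so that the highest BL6 library was far below the lowest SmoA1 library (7.85-fold, edgeR adjusted p = 2.73e-05). Its BL6 counts were 7, 2 and 1 unstranded against 12, 4 and 5 in the first strand column, so this fold is raised too. Across 13 alternative fits the log2 difference of Selp ran from 2.19 to 4.08, and the call held. Sele had 83 counts in SmoA1 and none in BL6, at least 23.2-fold higher against a floor of 3 counts over the BL6 group. Icam1 was 2.02-fold and Vcam1 1.73-fold higher (edgeR adjusted p = 0.00511 for Icam1 and 0.00179 for Vcam1), with the values of each library given above.

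Il1rn had 61.1, 65.7 and 57.3 CPM in SmoA1, against 3.34, 5.81 and 10.3 CPM in BL6 after 1 Gy, and was 8.98-fold higher with no overlap (edgeR adjusted p = 6.64e-07). Il1a had 25.3, 32.8 and 29.4 CPM in SmoA1, against 10.02, 7.74 and 13.2 CPM in BL6, and every SmoA1 library lay above every BL6 library (2.74-fold). Il33 had 74.5, 50.5 and 77.8 CPM in SmoA1, against 38.4, 36.8 and 33.8 CPM in BL6, again without overlap (1.84-fold). Il1b was 2.72-fold and Tnf 7.59-fold higher, Tnf with 11, 13 and 15 counts in SmoA1 and 3, 1 and 0 counts in BL6. Il10, not tested under the filter, had 13, 22 and 9 counts in SmoA1 and 1, 1 and 2 counts in BL6 after 1 Gy, and DESeq2 called it higher (adjusted p = 0.0192).

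The gp130 cytokines Il6, Lif and Osm were higher in SmoA1 after 1 Gy. Il6 had 35.7, 30.3 and 27.9 CPM in SmoA1, against 0, 3.87 and 2.94 CPM in BL6 (13-fold, edgeR adjusted p = 5.23e-05). Osm had 22.3, 26.5 and 35.3 CPM in SmoA1, against 1.67, 5.81 and 0 CPM in BL6 (11.6-fold, edgeR adjusted p = 0.000257). Lif had 34.3, 59.4 and 49.9 CPM in SmoA1, against 23.4, 21.3 and 10.3 CPM in BL6 (2.68-fold, edgeR adjusted p = 0.00375). No library of either group reached the range of the other in these genes.

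Of the chemokines, Cxcl1, Cxcl2, Cxcl9, Cxcl10 and Ccl2 were called higher in SmoA1 after 1 Gy. Cxcl2 had 25.3, 30.3 and 26.4 CPM in SmoA1, against 3.34, 5.81 and 1.47 CPM in BL6 (7.79-fold). Cxcl9 had 35.7, 37.9 and 41.1 CPM in SmoA1, against 3.34, 3.87 and 10.3 CPM in BL6 (6.1-fold). The groups were well apart in both. Cxcl10 had 35.7, 44.2 and 36.7 CPM in SmoA1, against 15, 17.4 and 8.82 CPM in BL6 (2.88-fold), and Cxcl1 had 41.7, 27.8 and 27.9 CPM in SmoA1, against 13.4, 3.87 and 16.2 CPM in BL6 (2.75-fold). Ccl2 was 2.35-fold higher at an edgeR adjusted p of 0.0474, close to the threshold. The calls of Il1a, Il1b, Cxcl1, Ccl2, Il33 and Icam1 were lost under at least 1 alternative, that of Ccl2 under 8 of 13. For Cx3cl1, which had 46.2, 74.5 and 35.3 CPM in SmoA1, against 78.5, 65.8 and 52.9 CPM in BL6, the log2 difference was -0.31 ± 0.24 (edgeR adjusted p = 0.58).

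Related genes were called higher in SmoA1 after 1 Gy in 9 of 31 receptors, 5 of 14 adhesion partners, 6 of 28 NF-kB signalling genes and 0 of 9 eicosanoid genes, and none lower. Of the marker lists, 2 of 18 microglia and macrophage markers were called higher, with sums of 657 to 700 CPM in SmoA1 and 498 to 623 CPM in BL6. None of 12 endothelial markers was called, and 6 of 10 granule progenitor markers were called higher. The part of these lists in the members' differences was not tested.

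After sham treatment fewer members separated the tissues. Of 19 tested, 2 were called higher in SmoA1 sham than in BL6 sham libraries and 1 lower, where 7.07% and 9.4% of 16428 genes were called. Il1rn had 22.2, 22.9 and 28.2 CPM in SmoA1, against 1.85, 6.14 and 1.77 CPM in BL6 after sham, and was 6.87-fold higher (edgeR adjusted p = 0.000284). Cxcl10 had 17.8, 38.2 and 24.2 CPM in SmoA1, against 9.24, 7.68 and 7.1 CPM in BL6 after sham, without overlap, and was 3.34-fold higher (edgeR adjusted p = 0.00464, and 0.0513 without SmoA1 sham library 2).

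Cx3cl1 was lower in SmoA1 than in BL6 after sham. It had 40.04, 22.9 and 29.5 CPM in SmoA1, against 59.2, 90.6 and 53.2 CPM in BL6, with every SmoA1 library below every BL6 library (log2 fold change -1.16 ± 0.25, edgeR adjusted p = 0.00156). In the same comparison 5 of 10 granule neuron markers were called lower and 7 of 10 granule progenitor markers higher, and 3 of 18 microglia and macrophage markers were called higher and 1 lower. Their part in the value of Cx3cl1 was not tested.

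Tnf had 11, 11 and 11 counts in the SmoA1 sham libraries and none in the BL6 sham libraries, at least 8.76-fold higher against 3 counts over the BL6 sham group. It did not pass the edgeR filter, and DESeq2 called it (adjusted p = 0.00128). DESeq2 also called Cxcl9, which had 38.6, 12.7 and 21.5 CPM in SmoA1, against 7.39, 3.07 and 1.77 CPM in BL6 after sham (adjusted p = 0.011), and Osm, which had 13.3, 26.7 and 6.71 CPM in SmoA1, against 3.7, 3.07 and 0 CPM in BL6 (adjusted p = 0.049). In both the highest BL6 sham library was below the lowest SmoA1 sham library.

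Selp, Cxcl2 and Sele did not pass the filter, and edgeR with no filter called each higher in SmoA1 sham than in BL6 sham. Selp had 11.9, 16.5 and 12.1 CPM in SmoA1, against 1.85, 3.07 and 1.77 CPM in BL6. Its log2 difference was 2.47 ± 0.70 (edgeR adjusted p = 0.00602). Those of Cxcl2 and Sele were 3.11 ± 0.85 and 2.32 ± 0.82 (edgeR adjusted p = 0.00389 for Cxcl2 and 0.0418 for Sele). For Selp the BL6 sham counts were 1, 2 and 1 unstranded against 6, 8 and 4 in the first strand column. This shortfall was relatively larger than in SmoA1 sham, so the difference of Selp is raised. The members that follow passed the filter and were not called after sham. Il1a had 16.3, 28 and 17.5 CPM in SmoA1, against 12.9, 10.8 and 8.87 CPM in BL6, apart but not called (edgeR adjusted p = 0.129). Lif had 26.7, 39.4 and 14.8 CPM in SmoA1, against 18.5, 10.8 and 19.5 CPM in BL6, with overlap, and Cxcl1 had 13.3, 24.2 and 20.1 CPM in SmoA1, against 16.6, 3.07 and 3.55 CPM in BL6, where the first BL6 library lay among the SmoA1 values. Il33 had 32.6, 36.9 and 26.9 CPM in SmoA1, against 44.4, 44.5 and 33.7 CPM in BL6, and here BL6 was higher in the mean (log2 difference -0.34 ± 0.25). Icam1 and Ptgs2, called neither way, had log2 differences of -0.02 ± 0.36 and -0.60 ± 0.31.

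**Figure D3:**
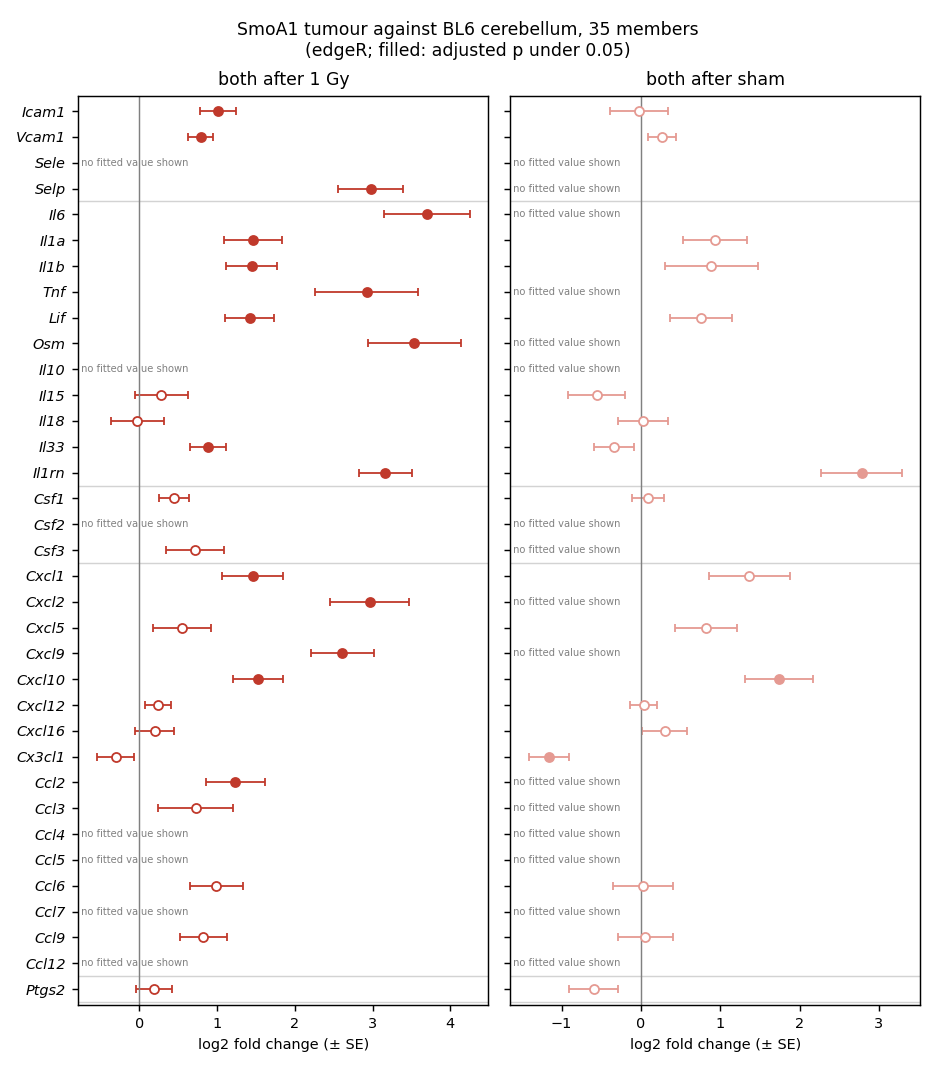
Log2 fold change (edgeR, ± SE) of the members in SmoA1 tumours against BL6 cerebellum, both after 1 Gy (left) and both after sham (right), on linear axes. Filled points have an adjusted p under 0.05. The 1 Gy panel has filled points on the positive side only, and Sele, at 0 counts in BL6 after 1 Gy, is not drawn there.

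In Ptc tumours the cytokine genes Il6, Lif, Il1a, Il1b and Il1rn, the adhesion genes Icam1 and Selp and 9 chemokines rose after 1 Gy by the DESeq2 test, with wide spread between libraries, while edgeR called none. Of 35 members 32 passed the filter (all but Csf2, Csf3 and Il10), and the edgeR test called 0 members and 0% of 19571 genes, with 21 members and 1421 genes at an unadjusted p under 0.05. DESeq2 called 16 members higher and 0 lower, with 1.07% of 20396 genes called higher. Of the 32 tested members 19 had every 1 Gy library above every sham library, as had 7.06% of all genes tested. Some of them passed the filter only through the 1 Gy libraries, where they are high. Among these were Il6, at 1, 0 and 1 counts after sham, and Cxcl2, at 7, 1 and 3. With no filter, 31 of 34 members with a count had a positive fitted change, with a median log2 of 2.62, beside 51.6% and 0.03 for all genes.

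Il6 had the largest fitted change of the tested members. It had 64, 594 and 180 counts in the Ptc 1 Gy libraries, against 1, 0 and 1 counts in the sham libraries, or 1.38, 18.1 and 4.92 CPM after 1 Gy and 0.0233, 0 and 0.0208 CPM after sham. The 1 Gy libraries were all far above sham but differed widely among themselves, with library 2 the highest. The ratio of 838 to 2 counts, scaled to depth, was 497 with an exact 95% interval of 137 to 4109 for counting error only, and the adjusted p was 0.685 by edgeR and 2.49e-07 by DESeq2.

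Il1rn, Il1a and Il1b were all called higher by DESeq2. Il1rn had 1.53, 22.2 and 39.4 CPM after 1 Gy, against 0.513, 0.216 and 0.416 CPM after sham (log2 fold change 5.77 ± 1.21, DESeq2 adjusted p = 8.8e-06). Il1a had 5.09, 13.9 and 12.1 CPM after 1 Gy, against 1.24, 0.475 and 1.12 CPM after sham. It was the most even of the 3 among 1 Gy libraries (log2 fold change 3.45 ± 0.62, DESeq2 adjusted p = 8.87e-06). Il1b had 3.92, 6.77 and 20.3 CPM after 1 Gy, against 1.0, 0.129 and 0.687 CPM after sham, with library 3 the highest (DESeq2 adjusted p = 0.0014).

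Lif had 1.7, 11.6 and 5.22 CPM in Ptc tumours after 1 Gy, against 0.42, 0.367 and 0.0832 CPM after sham, and DESeq2 called it higher (adjusted p = 0.000213). Osm separated too, at 0.539, 2.35 and 1.48 CPM after 1 Gy and 0.467, 0.151 and 0.208 CPM after sham, without passing (DESeq2 adjusted p = 0.0736). Tnf had 0.668, 0.396 and 2.19 CPM after 1 Gy and 0.467, 0.129 and 0.25 CPM after sham, with overlap (DESeq2 adjusted p = 0.306). Il33 and Il18, at log2 differences of -0.01 ± 0.80 and 0.37 ± 1.00, and Il15, at 0.56 ± 0.75, overlapped widely. Without 1 Gy library 2 the edgeR log2 difference was -1.18 for Il18 and -0.21 for Il15, opposite in sign. Il33 had 5.95, 19.3 and 14.8 CPM after 1 Gy and 3.5, 28 and 8.86 CPM after sham, with sham library 2 the highest of all. Il10 had 6, 6 and 6 counts after 1 Gy and 1, 0 and 2 after sham, a depth-scaled ratio of 7.11 with an exact 95% interval of 2.08 to 37.7.

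Among Ptc chemokines, DESeq2 called 9 of 16 higher (Cxcl1, Cxcl2, Ccl2, Ccl3, Ccl4, Ccl6, Ccl7, Ccl9 and Ccl12). Cxcl1 had 4.61, 51.6 and 14.5 CPM after 1 Gy, against 2.5, 0.475 and 1.48 CPM after sham, and Cxcl2 had 0.302, 8.81 and 2.43 CPM after 1 Gy, against 0.163, 0.0216 and 0.0624 CPM after sham (DESeq2 adjusted p = 0.00536 for Cxcl1 and 0.00133 for Cxcl2). In both, library 2 was the highest after 1 Gy and the lowest after sham. Without 1 Gy library 2 neither passed, with DESeq2 log2 changes of 2.67 for Cxcl1 and 4.05 for Cxcl2 (adjusted p = 0.12 for Cxcl1 and 0.0708 for Cxcl2). Ccl2 had 4.7, 15.9 and 18.3 CPM after 1 Gy, against 1.73, 0.345 and 1.29 CPM after sham (log2 fold change 3.53 ± 0.80, DESeq2 adjusted p = 0.00136).

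Ccl3 and Ccl4 are macrophage chemokines that attract monocytes and T cells. Ccl3 had 2.69, 3.69 and 12.1 CPM after 1 Gy, against 0.794, 0.259 and 0.499 CPM after sham. Ccl4 had 2.57, 1.13 and 12.1 CPM after 1 Gy, against 0.21, 0.151 and 0.208 CPM after sham. Both peaked in 1 Gy library 3. Ccl7 and Ccl12, neighbours of Ccl2 on chromosome 11 and also monocyte attractants, were called as well. Ccl7 had 3.34, 3.87 and 7.93 CPM after 1 Gy, against 0.233, 0.216 and 0.853 CPM after sham (log2 fold change 3.53 ± 0.76). Ccl12 had 3.84, 1.19 and 3.44 CPM after 1 Gy, against 0.187, 0.518 and 0.666 CPM after sham (log2 fold change 2.62 ± 0.70). The groups stood apart in both. Ccl9 had 1.01, 6.16 and 20.7 CPM after 1 Gy, against 0.257, 0.496 and 0.645 CPM after sham, and Ccl6 had 1.36, 4.73 and 9.68 CPM after 1 Gy, against 0.91, 0.496 and 1.17 CPM after sham, again without overlap. DESeq2 called Ccl6 in 2 of 8 fits and Ccl9 in 7 of 8. Cxcl9 had 1.68, 0.274 and 0.929 CPM after 1 Gy and 0.0467, 0 and 0.957 CPM after sham. Cxcl10 had 3.3, 5.03 and 6.29 CPM after 1 Gy and 3.69, 1.04 and 2.02 CPM after sham. Both overlapped, and so did Cxcl5 and Ccl5, with log2 differences of 0.86 ± 0.84 and -0.03 ± 0.53.

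Cxcl16, a membrane-bound chemokine, separated at 16.5 ± 9.34 CPM after 1 Gy and 4.34 ± 1.78 CPM after sham (SD, n = 3 each, DESeq2 adjusted p = 0.0799). Cxcl12 was lower on average after 1 Gy, at 50.1, 18 and 33.8 CPM after 1 Gy and 36.9, 77.2 and 51.8 CPM after sham, with overlap (log2 difference -0.70 ± 0.44, DESeq2 adjusted p = 0.703). Cx3cl1 had 10, 69.8 and 15.7 CPM after 1 Gy and 4.13, 65 and 14.1 CPM after sham, and Csf1 had 9.31, 71.8 and 22 CPM after 1 Gy and 9.64, 28.5 and 14.9 CPM after sham. Both were highest in library 2 of each group, and without 1 Gy library 2 their edgeR log2 differences turned to -1.11 for Cx3cl1 and -0.17 for Csf1. Csf3 had 6, 84 and 10 counts after 1 Gy and 0, 7 and 1 after sham, most of them in 1 Gy library 2, and Csf2 had none in any Ptc library.

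All 4 adhesion genes had higher means after 1 Gy in Ptc tumours, and DESeq2 called Icam1 and Selp. Icam1 had 8.99, 70.9 and 21.1 CPM after 1 Gy, against 5.3, 4.06 and 4.91 CPM after sham (log2 fold change 2.82 ± 0.76, DESeq2 adjusted p = 0.0188). Vcam1 had 32.4, 119.8 and 56.6 CPM after 1 Gy, against 24, 20.9 and 22 CPM after sham (log2 fold change 1.64 ± 0.47, DESeq2 adjusted p = 0.0965). The sham libraries of both genes were close together and the 1 Gy libraries spread upward from just above them. Selp had 0.345, 6.89 and 2.27 CPM after 1 Gy and 0.373, 0.194 and 0.333 CPM after sham, where 1 Gy library 1 lay within the sham range (log2 fold change 3.38 ± 1.06, DESeq2 adjusted p = 0.0367). Without 1 Gy library 2 the DESeq2 log2 change of Selp was 2.11 and did not pass (adjusted p = 0.487), and 3 of 8 DESeq2 fits called it. Sele had 0.28, 0.701 and 1.28 CPM after 1 Gy and 0.163, 0.129 and 0.0624 CPM after sham, without overlap (DESeq2 adjusted p = 0.0603). Ptgs2 had 1.68, 11.8 and 8.77 CPM after 1 Gy and 0.373, 2.52 and 1.08 CPM after sham, with overlap through library 2 of the sham group (DESeq2 adjusted p = 0.137).

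**Figure D4:**
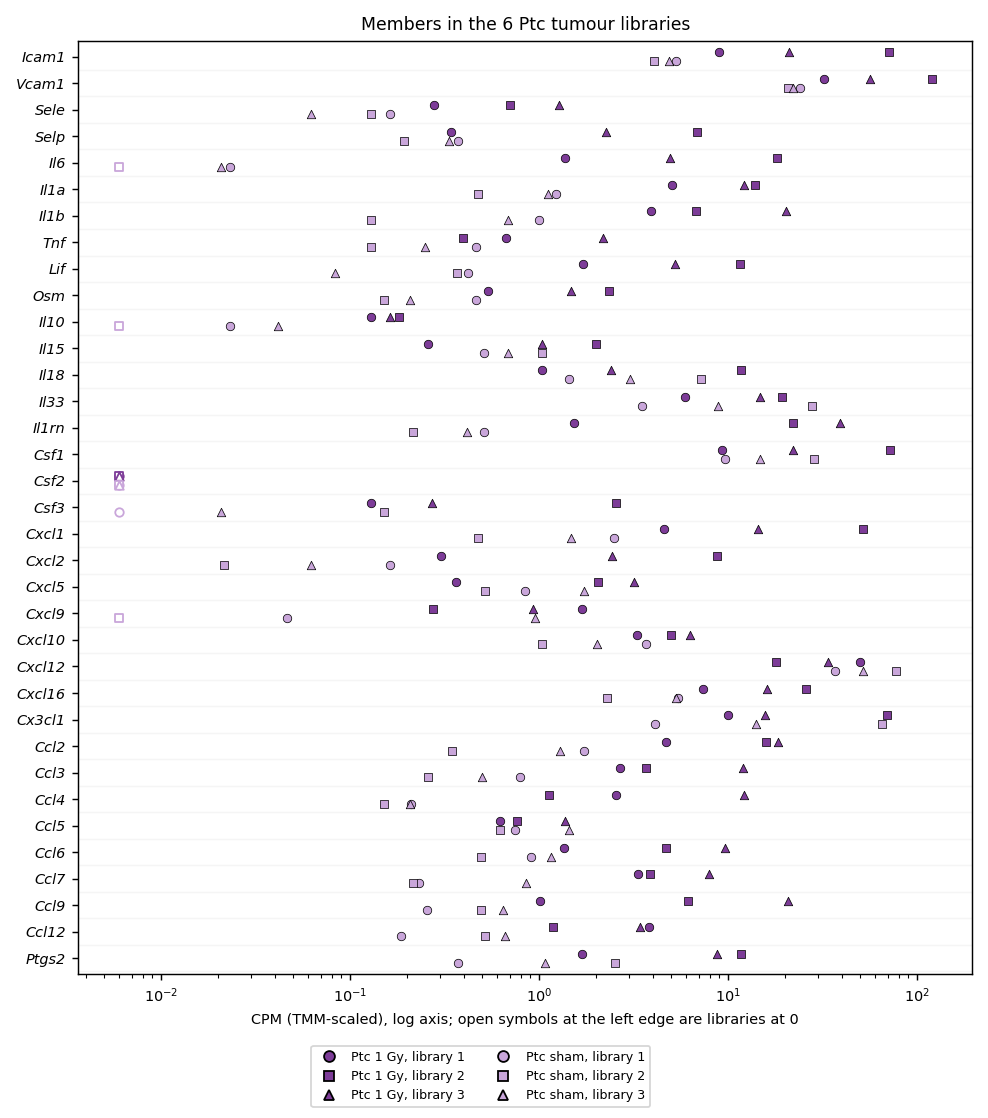
TMM-scaled CPM (log axis) of the members in the 6 Ptc libraries, grouped by role, with 1 symbol per library number and open symbols at the left edge for libraries at 0. For Il6, Il1a, Il1b, Lif, Il1rn and Ccl2 all 1 Gy libraries lie right of all sham libraries, and of 34 members with a count 18 are highest in 1 Gy library 2 among the 1 Gy libraries.

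Marker genes of several cell types also varied between the Ptc libraries. The summed CPM of 18 microglia and macrophage markers was 431, 2773 and 1508 in the 1 Gy libraries and 534, 239.5 and 517 in the sham libraries. For 12 endothelial markers it was 206, 1275 and 243 after 1 Gy and 135, 493 and 180.4 after sham, and for 9 pericyte and mural markers 183, 1233 and 238 after 1 Gy and 154, 215 and 142 after sham. No marker of these 3 lists was called by DESeq2. For 12 neutrophil markers it was 3.36, 24 and 24.5 after 1 Gy and 6.72, 7.29 and 7.82 after sham, with Ly6g and Elane at 0 in sham. The library with the most marker counts for microglia, endothelium and pericytes was 1 Gy library 2.

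Markers of the granule lineage varied as well. The sum of 10 granule progenitor markers was 3503, 2425 and 4076 CPM in the 1 Gy libraries and 6332, 774 and 4119 CPM in the sham libraries, and that of 10 granule neuron markers 6134, 983 and 3025 CPM in the 1 Gy libraries and 3325, 6989 and 4091 CPM in the sham libraries. Sham library 2 was thus low in progenitor markers, and also had 752 CPM of erythrocyte markers, against 8.36 and 54.3 CPM in the other sham libraries. In 1 Gy library 1 the microglia sum was within the sham range and the neutrophil sum below it. Of the 35 members, 20 had every 1 Gy library, this one included, above every sham library. Among them in this library were Il6 at 1.38 CPM, Il1a at 5.09 CPM and Ccl2 at 4.7 CPM. Other members, such as Selp at 0.345 CPM, Cxcl10 at 3.3 CPM, Ptgs2 at 1.68 CPM and Il33 at 5.95 CPM, lay within the sham range. Csf1 at 9.31 CPM, Il18 at 1.03 CPM, Il15 at 0.259 CPM and Cxcl5 at 0.366 CPM lay below every sham library. The part of the marker differences in the members' values was not tested.

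**Figure D5:**
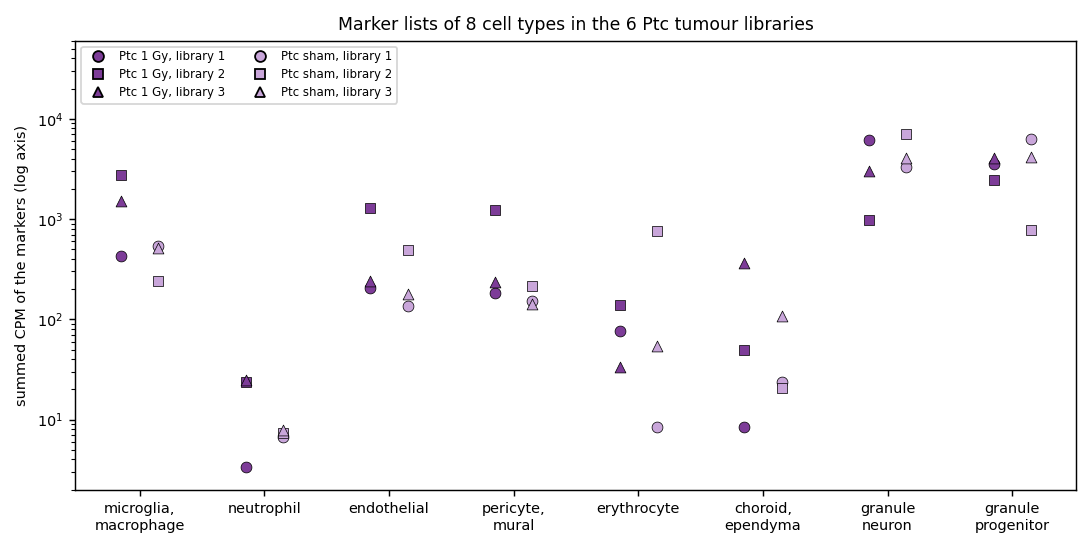
Summed CPM (log axis) of marker lists for 8 cell types in the 6 Ptc libraries, with 1 symbol per library number and the 1 Gy libraries left of the sham libraries. The microglia, endothelial and pericyte sums are highest in 1 Gy library 2, and the microglia sum of 1 Gy library 1 lies within the sham range.

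The DESeq2 count in Ptc depended on single libraries. It was 11 without 1 Gy library 2, 12 without 1 Gy library 3 and 11 without both libraries numbered 2. Over all genes, 219 were called higher with 6 libraries, and 90, 193 and 152 in these fits. Il6, Il1a, Il1b, Il1rn, Lif, Ccl2, Ccl3, Ccl4 and Ccl7 were called in all 8 DESeq2 fits, the fit with 6 libraries included. Without both libraries numbered 2 the DESeq2 log2 changes of Il6, Il1rn and Il1a were 7.14, 5.44 and 2.85. Those of Icam1 and Vcam1 were 1.55 and 0.94, and neither passed (adjusted p = 0.175 and 0.548).

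Related genes were counted in Ptc as well. Of NF-kB signalling genes 27 of 28 were tested, with 4 called higher and 0 lower by DESeq2 and a median log2 change of 1.55 in the edgeR fit. Of receptors 28 of 34 were tested, with 2 called higher by DESeq2 and a median of 0.98, and of adhesion partners 13 of 15, with 1 called higher and a median of 1.73. Of 10 eicosanoid genes, all tested, 1 was called higher. The edgeR test called 0 genes of these lists.

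Levels per kilobase of exon can be compared between genes in the Ptc libraries. After 1 Gy the highest members were Cxcl1 at 12.6 ± 13.2, Ccl2 at 11.4 ± 6.39 and Cx3cl1 at 8.1 ± 8.41 CPM per kb, and after sham Cx3cl1 at 7.06 ± 8.31, Cxcl12 at 6.76 ± 2.49 and Il33 at 4.66 ± 4.46 CPM per kb (SD, n = 3 each). None of these neighbours in the order differed beyond its spread. At the low end after sham, Il6 at 0.00606 CPM per kb was 1.19 times the mean of 1134 olfactory receptor genes, a floor chosen after the data were seen for genes not expected in brain, and Il10 was 3.25 times it. In SmoA1 tumours after 1 Gy each member but Csf2 lay 43.4 to 119 times above that floor. That range was narrow beside 24.6 to 2547 times in Ptc tumours after 1 Gy. Most uniquely mapped reads of the SmoA1 and BL6 libraries lay outside exons, and their part in these ratios was not tested. The ratios in SmoA1 and BL6 are therefore not read as abundance. Sham and BL6 libraries reached down to the floor, with Il10 at 1.5 times the floor in SmoA1 sham.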

How the data were processed

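Per the deposited files, each library is a table of whole-number counts per gene with unstranded and strand-specific columns and 4 rows of unassigned reads, which were left out of library sizes. The submitters' processing notes name mm10 and Cell Ranger 5.0.1, and no source used here names the aligner. Unstranded counts were used. The 4 files of each SmoA1 or BL6 sample, numbered as biological replicates in the labels, varied less than random draws from 1 library would (variance to mean ratio 0.858 to 0.938 over genes with at least 40 counts) and were summed as 1 library. Symbols and positions came from GENCODE M21 on GRCm38, and promoters from RefSeq.

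Each comparison was fitted over all genes with edgeR 4.0.16 in R 4.3.3 (filterByExpr, TMM, quasi-likelihood test, Benjamini-Hochberg adjusted p under 0.05), with the 2 groups compared, or with 4 groups for the interaction. SE values are the log2 fold change divided by the root of the F statistic, and ratios of printed CPM means can differ slightly from fitted folds. DESeq2 1.42.0 was the alternative test. The methods were tested on simulated counts. Alternatives were no filter, a mean of at least 1 CPM, RLE scaling, the strand column, a replicate block, an adjusted p under 0.1, 1 fit over the 12 SmoA1 and BL6 libraries, and each library left out. DESeq2 fits leaving out Ptc libraries were added after the data were seen. Values in every library were given for members called by edgeR in any comparison, for the 3 smallest p in each comparison of 1 Gy with sham, and for Il6, Tnf, Il1b, Ccl2, Icam1, Vcam1 and Ptgs2. The values of Ccl3, Ccl4, Ccl6, Ccl7, Ccl9 and Ccl12 in each Ptc library were added after they were seen. The members and lists were chosen with earlier results of these data known. The values of 1 related gene are not reported here.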

Additional observations from a re-analysis of the deposited data

How the results depend on the processing

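No member called by edgeR changed direction under any alternative. In Ptc, where edgeR called none, Cx3cl1, Csf1, Il18, Il15 and Ccl5 changed sign without 1 Gy library 2, and Il33 and Il18 under the replicate block. For 1 Gy in SmoA1, 6 members were called, and 10 with no filter and 10 at an adjusted p under 0.1. Over all genes, 331, 828 and 521 were called higher in these settings and 32, 141 and 97 lower. In Ptc, DESeq2 called 16, and 21, 11 and 12 without 1 Gy libraries 1, 2 and 3, 16, 13 and 14 without sham libraries 1, 2 and 3, and 11 without both libraries numbered 2, against 0 by edgeR. Over all genes DESeq2 called 219 higher. In the same order, the other fits called 592, 90, 193, 206, 158, 87 and 152 higher. For SmoA1 against BL6 the sham count was 3, with 6 by DESeq2, 10 with no filter and 8 at a mean of at least 1 CPM. Over all genes these fits called 1161, 839, 1908 and 1829 higher and 1544, 1306, 2514 and 2333 lower. Leaving out a library gave a sham count of 3 to 5, beside 915 to 1228 genes higher and 1228 to 1690 lower. The 1 Gy count was 17, beside 736 genes higher and 439 lower. It was 10 by the strand column, beside 395 genes higher and 217 lower. That column holds almost no counts of minus-strand genes in SmoA1 and BL6, so 6 of the 17 (Il1a, Il1b, Tnf, Cxcl9, Cxcl10 and Vcam1) could not be tested in it and the fall says nothing of their stability. The interaction count was 0, with 1 at an adjusted p under 0.1 and 0 to 1 on leaving out a library. Over all genes, 181, 303 and 80 to 263 were called higher in these fits and 12, 26 and 3 to 28 lower. Selp, Vcam1 and Il1rn kept their call for 1 Gy in SmoA1 under all alternatives that could test them.

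With a replicate block, 4 members were called for 1 Gy in SmoA1, 0 in BL6, 0 in Ptc and 0 for the interaction, and 3 and 14 for SmoA1 against BL6 after sham and after 1 Gy. Over all genes the block called 436 higher and 115 lower in SmoA1, against 331 and 32 without it. It called 6 higher and 1 lower in BL6, 0 in Ptc, and 62 higher and 8 lower for the interaction. For SmoA1 against BL6 it called 827 higher and 1133 lower after sham, and 688 and 568 after 1 Gy. Correlations of deviations between libraries of the same number were 0.07 and 0.03 in SmoA1, -0.04 and 0.01 in BL6, and -0.05, 0.08 and 0.21 in Ptc. Between libraries of different numbers they were -0.06 to 0.03 in SmoA1, -0.11 to 0.09 in BL6 and -0.27 to 0.23 in Ptc. With n = 3 in each group these values cannot decide whether the numbers pair the samples. Depth limits the BL6 results most, where 23 of 35 members were not tested.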
